A study of Mus musculus with 14 samples.

Results

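The collagen family of the mouse was examined in white and brown fat and in a brown fat cell line treated with blebbistatin. Its members were the genes whose symbol is Col, a number, the letter a and a number, which gave 44 of the 24421 genes in each deposited table. Collagens are the main proteins of the extracellular matrix, built from 3 chains wound into a triple helix. Fibrillar collagens form the tension-bearing cables of tissue, network collagens such as type IV form the sheet of basement membrane around each fat cell and vessel, and type VI forms beaded microfibrils between them. Collagens are made by fibroblasts, by fat cells and their precursors and by vessel cells, and type VI and type IV are abundant in the matrix of fat. By this division the family held 11 fibrillar members, 9 network members, 6 beaded filament (type VI) members and 9 members of the FACIT class, collagens with interrupted helices that sit on the surface of fibrils. The rest were 4 transmembrane members, 2 multiplexins, 1 anchoring fibril collagen and 2 others.

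Of the 14 samples, 8 were fat from C57BL/6N mice, 22 weeks of age, kept at ambient temperature, whose food had been a high-fat diet (60% of calories from fat) for 14 weeks: 4 of brown adipose tissue (BAT), the fat that makes heat, and 4 of perigonadal white adipose tissue (WAT). Both depots thus came from animals on that diet. The remaining 6 came from a cell line of BAT, turned into fat cells with insulin, T3, dexamethasone, IBMX and rosiglitazone and taken as differentiated on day 6. From day 7 it received DMSO as the vehicle (control, 3 samples) or 100 µM blebbistatin (BLEB, 3 samples) for 24 h, blebbistatin being an inhibitor of class II myosin motors. The labels number the replicates without saying that they came from separate animals or cultures, so p-values measure only the spread between these samples, which may be technical.

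Gene reads per library ranged from 6859404 to 16091372 in WAT, from 1014959 to 2335058 in BAT, from 10685378 to 14176846 in control and from 10920307 to 12978198 in BLEB, so rare collagens were measured least precisely in BAT. The names of the tissue libraries in the file headers form 1 series per depot, so any difference in handling between those series cannot be told apart from the depot. The defining markers followed the labels in tissue: Ucp1, the uncoupling protein of brown fat cells, was 12526 to 19939.5 CPM in BAT and 0.135 to 1.56 CPM in WAT (CPM, reads scaled to the same total of gene reads, after normalisation), and Lep, the leptin gene of white fat cells, was 1334 to 3059 CPM in WAT, against 187 to 387 CPM in BAT. In the cell line Ucp1 was present at 26.1 to 123 CPM in control and 8.15 to 14.3 CPM in BLEB, in a table normalised apart from the tissue table. Ppargc1a, another brown fat marker, went the other way, at 7.63 to 14.4 CPM in control and 15.8 to 31.4 CPM in BLEB. The 5 brown adipocyte markers together summed to 138 to 314 CPM in control and 144 to 190 CPM in BLEB, with overlap. Adipoq, the adiponectin gene, was 821 to 973 CPM in control. Among the control libraries, control 1 stood apart, with 3.45% of its gene reads on the ribosomal RNA gene Rn45s, against 0.741% to 1.03% in the BLEB libraries. The numbers of collagens called in the cells are given with and without it, and other values in the cells include it unless stated.

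Most tested collagens were lower in BAT than in WAT, with lower members in 5 of 8 classes. Of the 44 members, 25 passed the filter on low reads, and 20 of these were called lower in BAT (limma's test, Benjamini-Hochberg adjusted p under 0.05 over all genes), where 31.6% of the 12754 tested genes were called lower. In the other direction 2 were called higher, against 30.7% of all tested genes, and 3 were not called. At an unadjusted p under 0.05 there were 22, beside 65.7% of all tested genes. The 4 BAT libraries were all under the 4 WAT libraries for 20 collagens, where 29.8% of tested genes were so placed, and all above them for 2, against 28.4%. The median log2 fold change over the 25 was -1.68, beside -0.05 over all tested genes. With no TMM normalisation 25.1% of all tested genes were called higher and 39.4% lower, and with uncentred RPKM 6.55% and 74.3%, while the collagens were called 2 higher and 20 lower in the former and 2 higher and 23 lower in the latter. All collagens together took 1.10% to 1.30% of the gene reads in WAT libraries and 0.311% to 0.499% in BAT libraries. Of the mapped reads, 71.1% to 83.0% lay in genes in the WAT libraries, against 19.1% to 42.3% for BAT, and the part of this in the collagen differences was not tested. In bulk tissue, fewer collagen-making cells and less collagen RNA per cell cannot be told apart.

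By class, the lower members were 6 of 7 tested fibrillar, 5 of 5 network, 5 of 5 beaded filament, 2 of 3 FACIT and 2 of 2 multiplexin collagens. The median log2 fold change was -1.81 for the fibrillar class, -0.84 for the network class and -2.44 for the beaded filament class. None of the 2 tested transmembrane collagens was called lower, and the anchoring fibril collagen Col7a1 was not tested. The 2 called higher were Col27a1, of the fibrillar class, and Col13a1, of the transmembrane class. For 2 of the lower members, Col4a6 and Col6a6, no BAT library reached the read level of the filter, and for Col13a1 no WAT library did, so these 3 could only be tested because the other depot was high. Col6a5 reached that level in 4 WAT libraries and in 1 BAT library, so it too entered the test mainly through WAT.

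**Figure D1:**
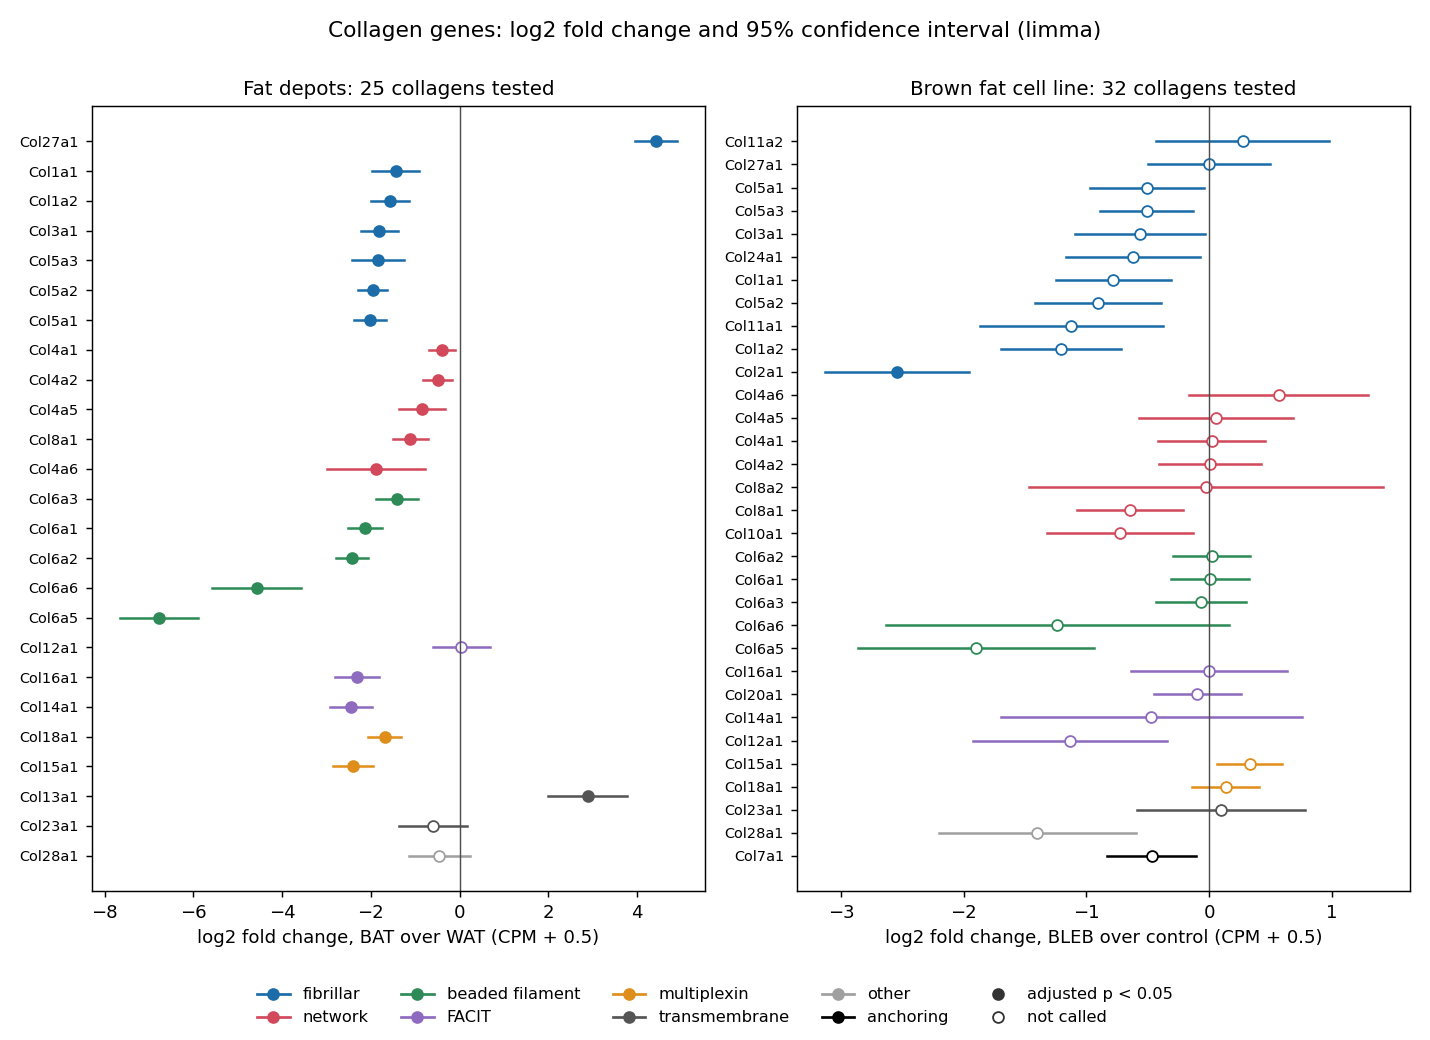
Log2 fold changes of the tested collagens with 95% confidence intervals (lines), BAT over WAT on the left and BLEB over control on the right, ordered by class (colour). Filled points have an adjusted p under 0.05 (limma). In the depots 20 of the 25 points are filled and below 0, led by Col6a5 at -6.78, and 2 are filled and above 0; in the cells the only filled point is Col2a1 at -2.54.

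The fibril-forming collagens of soft tissue were lower in BAT by a similar factor. Col3a1, whose type III homotrimers run with type I in soft tissue, was 3213, 3431, 3303 and 3206 CPM in WAT and 1231, 663, 897 and 1068 CPM in BAT. The depots were well apart, with the highest BAT library (BAT 1) under the lowest WAT library, and the log2 fold change was -1.81 (SE 0.19, adjusted p = 4.52e-06). Col1a1, the alpha 1 chain of type I collagen, was 1104, 1159, 954 and 896 CPM in WAT and 417, 211, 422 and 542 CPM in BAT. Its lowest value in BAT was that of BAT 2, and all BAT libraries were under all WAT libraries, with a log2 fold change of -1.44 (SE 0.25, adjusted p = 2.67e-04). Col1a2, the alpha 2 chain that pairs with it, was 1008, 1265, 1118 and 1035 CPM in WAT and 441, 270.1, 316 and 502 CPM in BAT. Again no BAT library reached a WAT library, and the log2 fold change was -1.57 (SE 0.20, adjusted p = 2.05e-05).

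Type V collagen nucleates type I fibrils and sets their thickness. Col5a2 was 333, 311, 299 and 315 CPM in WAT and 107, 77.3, 69.5 and 72.3 CPM in BAT, 2 ranges that did not touch, for a log2 fold change of -1.96 (SE 0.15, adjusted p = 3.07e-07). Its partners Col5a1 and Col5a3 were lower by -2.02 (adjusted p = 6.25e-07) and -1.85 (adjusted p = 7.54e-05) on the log2 scale. The 3 chains of type V thus lay between -2.02 and -1.85.

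Col4a1 and Col4a2, the main chains of basement membrane, differed least among the called collagens. Col4a1, the alpha 1 chain of type IV collagen, was 1178, 1260.0, 1283 and 1161 CPM in WAT and 977, 825, 954 and 943 CPM in BAT. Every BAT library was lower than every WAT library, but by little: the log2 fold change was -0.40 (SE 0.13, adjusted p = 0.0196), a fold of 1.32. Col4a2, the alpha 2 chain, was 901, 996, 1069 and 898 CPM in WAT and 691, 558, 771 and 744 CPM in BAT. The depots did not overlap here either, and the log2 fold change was -0.49 (SE 0.15, adjusted p = 0.0125). In mm9 the genes lie head to head on chromosome 8, Col4a1 at chr8:11198423-11312826 on the minus strand and Col4a2 at chr8:11312805-11449287 on the plus strand, with starts 21 bases apart, and the sources used here do not say whether strand was used in counting.

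Of the rarer type IV chains, Col4a5 was lower by -0.84 (SE 0.23, adjusted p = 0.00759) on the log2 scale, and Col4a6, on the neighbouring start on chromosome X, by -1.88 (SE 0.51, adjusted p = 0.00643). Col4a6 rests on 160 reads in WAT and 5 in BAT. With any WAT library left out Col4a6 no longer entered the test. On RPKM centred on library medians its call was lost, at -0.46 (adjusted p = 0.309). Col8a1, a short-chain network collagen of vessel walls, was lower by -1.11 (SE 0.19, adjusted p = 2.34e-04).

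Of the 5 type VI chains tested, all were lower in BAT, and Col6a5 and Col6a6 had the lowest log2 fold changes in the family. As given above, Col6a6 entered the test through WAT alone and Col6a5 mainly through WAT, so their direction follows in part from the filter. Col6a1, one of the 3 classic chains of the type VI trimer, was 739.8, 679, 744 and 592 CPM in WAT and 202, 121, 131 and 185 CPM in BAT. The depots were far apart, and the log2 fold change was -2.13 (SE 0.18, adjusted p = 6.96e-07). Col6a2, the second classic chain, was 857, 695, 765 and 629.6 CPM in WAT and 161, 108, 122 and 157 CPM in BAT. Its highest BAT library was far under its lowest WAT library, with a log2 fold change of -2.44 (SE 0.17, adjusted p = 1.18e-07). Col6a3, the third classic chain, from whose end the fragment endotrophin is cut, was lower by -1.41 (SE 0.22, adjusted p = 1.19e-04).

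Col6a5 and Col6a6 encode alternative chains that can take the place of the alpha 3 chain. Col6a5 was 194, 286, 107 and 162 CPM in WAT and 0.441, 1.10, 3.26 and 0.669 CPM in BAT, which is 8480 reads over the WAT libraries and 7 over the BAT libraries. It was easily detected in each WAT library and nearly missing from each BAT library. Its log2 fold change was -6.78 (SE 0.41, adjusted p = 5.50e-08), the lowest of all 12754 tested genes, and the ratio of summed reads per depth was 178 (95% counting interval 86.4 to 443). Col6a6 was 18.01, 22.8, 12.5 and 12.7 CPM in WAT and 1.32, 0, 0 and 0 CPM in BAT. Among the BAT libraries only BAT 1 had any Col6a6 read, 3 in all against 747 in WAT, a ratio of 36.6 (counting interval 12.5 to 178). The fitted log2 fold change of Col6a6 was -4.58 (SE 0.46, adjusted p = 3.28e-06), which depends on the added 0.5 CPM. Counting intervals cover counting error only. In mm9, Col6a6 (chr9:105591747-105730415) and Col6a5 (chr9:105758400-105862974) lie in a row on the minus strand of chromosome 9 with Col6a4, which had 22 reads in WAT and 3 in BAT and was not tested.

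Among the collagens bound to fibrils and to basement membranes, 3 were among the 6 called members with the largest drop from WAT to BAT. Col14a1, a FACIT collagen on the surface of type I fibrils, was 75.03, 90.3, 117 and 76.4 CPM in WAT and 22.03, 12.7, 18.5 and 12.05 CPM in BAT. Its WAT and BAT libraries did not overlap, and the log2 fold change was -2.44 (SE 0.22, adjusted p = 1.03e-06). Col16a1, another FACIT collagen, was 32.2, 42.9, 54.4 and 40.3 CPM in WAT and 7.49, 9.94, 5.43 and 10.04 CPM in BAT. These ranges were also apart, with a log2 fold change of -2.31 (SE 0.23, adjusted p = 2.92e-06). Col15a1, a multiplexin that links basement membrane to the fibrils beneath it, was 468, 348, 397 and 303 CPM in WAT and 106, 70.2, 53.2 and 62.3 CPM in BAT. All BAT values were well under the lowest WAT value, and the log2 fold change was -2.40 (SE 0.21, adjusted p = 8.58e-07). Its relative Col18a1, the source of endostatin, was lower by -1.68 (SE 0.17, adjusted p = 3.60e-06).

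Both collagens called higher in BAT were minor components of WAT. Col27a1, a fibrillar collagen best known from cartilage (chr4:62876446-62996024 in mm9), was 8.68, 8.83, 4.74 and 6.18 CPM in WAT and 167, 143, 129 and 212 CPM in BAT. The lowest BAT library was many times the highest WAT library, and the log2 fold change was 4.44 (SE 0.22, adjusted p = 1.06e-08), a fold of 21.7. Ranked from the highest log2 fold change, it was gene 139 of 12754. Col13a1, a transmembrane collagen of cell contacts, was 0.0579, 0.210, 0.135 and 0.0997 CPM in WAT and 3.52, 5.52, 5.43 and 2.68 CPM in BAT, from 5 reads in WAT and 27 in BAT. It was low in both depots, with all BAT libraries above all WAT libraries. The log2 fold change was 2.89 (SE 0.41, adjusted p = 5.53e-05), and the ratio of summed reads per depth was 36.8 (counting interval 13.95 to 122). With any WAT library left out, Col13a1 no longer entered the test.

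**Figure D2:**
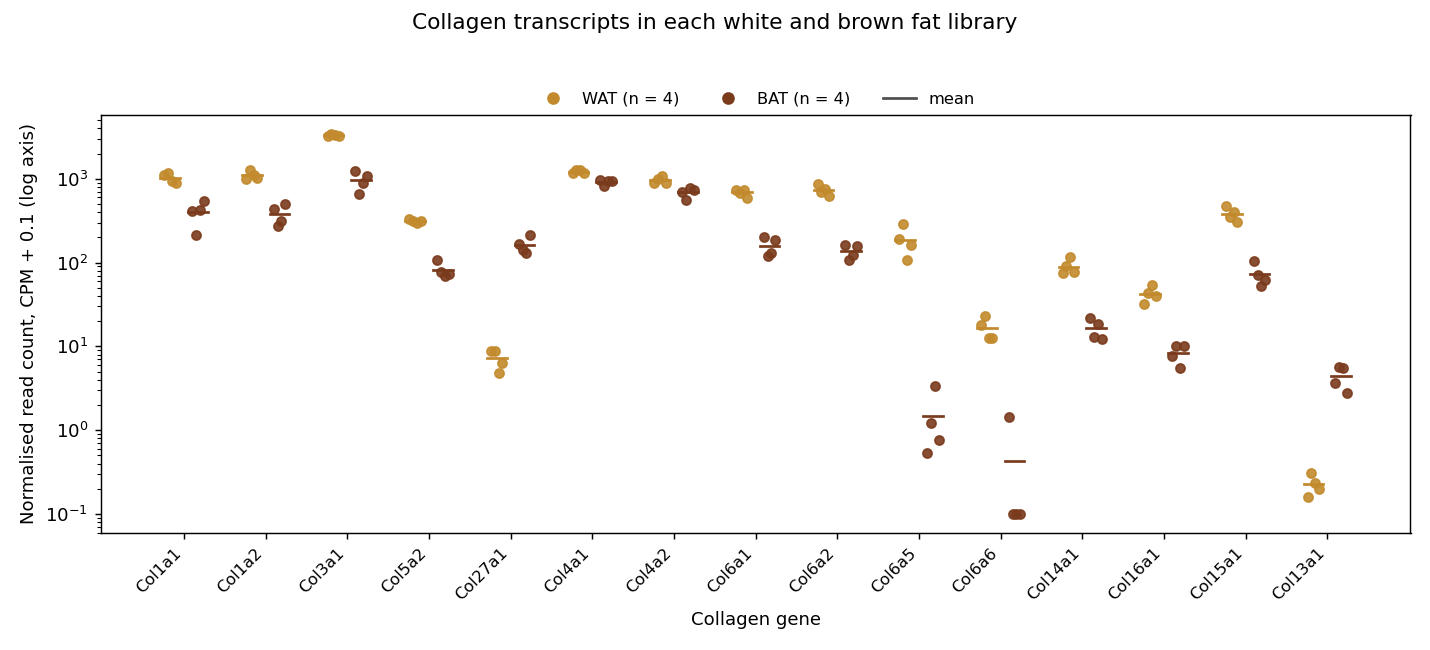
Normalised read counts (CPM plus 0.1, log axis) of 15 collagens in each of the 4 WAT and 4 BAT libraries (points), with the group mean as a bar. BAT libraries lie under WAT libraries for 13 of the genes, closely for Col4a1 and Col4a2 and far apart for Col6a5 and Col6a6; Col27a1 and Col13a1 lie the other way.

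The stretch upstream of the start site is shown for the collagens at both ends of the depot comparison and for Col3a1, which had the highest mean RPKM of the collagens in both depots, though overlapping with Col4a1 in BAT, to print the sequence beside the measurements. These are the 250 bases before the gene start in RefSeq annotation of GRCm38.p6, 5′ to 3′ on the gene's strand: chr4:63215162-63215411, plus strand, for Col27a1; chr10:61979109-61979358, minus strand, for Col13a1; chr9:105960644-105960893, minus strand, for Col6a5; and chr1:45311288-45311537, plus strand, for Col3a1. Capitals mark a GC box, whose letters are GGGCGG. They also mark a TATA box, with the letters TATAAA. A TEAD motif, with the letters GGAATG, is in capitals as well. Each was searched on both strands.
Col27a1 promoter: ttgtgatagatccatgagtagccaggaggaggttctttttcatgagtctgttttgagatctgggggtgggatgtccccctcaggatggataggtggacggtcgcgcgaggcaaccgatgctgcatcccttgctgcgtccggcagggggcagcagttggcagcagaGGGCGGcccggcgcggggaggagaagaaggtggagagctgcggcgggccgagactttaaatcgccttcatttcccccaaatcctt
Col13a1 promoter: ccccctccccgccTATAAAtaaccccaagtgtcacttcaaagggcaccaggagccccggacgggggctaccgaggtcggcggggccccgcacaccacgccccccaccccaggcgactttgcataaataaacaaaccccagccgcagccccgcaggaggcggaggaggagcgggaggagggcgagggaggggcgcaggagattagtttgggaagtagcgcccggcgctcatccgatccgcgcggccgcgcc
Col6a5 promoter: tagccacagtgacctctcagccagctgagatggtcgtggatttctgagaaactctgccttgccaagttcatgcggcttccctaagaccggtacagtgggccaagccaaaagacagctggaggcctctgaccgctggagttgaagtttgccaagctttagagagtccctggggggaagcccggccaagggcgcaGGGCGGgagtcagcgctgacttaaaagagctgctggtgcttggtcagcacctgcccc
Col3a1 promoter: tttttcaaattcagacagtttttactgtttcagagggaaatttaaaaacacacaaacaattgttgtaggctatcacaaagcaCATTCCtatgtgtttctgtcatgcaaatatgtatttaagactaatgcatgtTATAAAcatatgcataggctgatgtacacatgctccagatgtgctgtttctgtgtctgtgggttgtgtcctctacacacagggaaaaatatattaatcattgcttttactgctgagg
Col27a1 and Col6a5, which lay at opposite ends, both held a GC box, at bases -85 to -80 and -57 to -52 from the start. Col13a1 held a TATA box at bases -237 to -232. Col3a1 held a TATA box at bases -117 to -112 and a TEAD motif at bases -168 to -163. The genes and motifs shown were chosen after the values had been seen. Of the 44 collagens, 35 had a promoter in the table. A GC box was in 21 of these 35 and in 32.7% of the 32851 promoters of the table, a CCAAT box (CCAAT) in 12 and in 33.8%, a TATA box in 5 and in 12.4%, a TEAD motif in 3 and in 12.6%, and a CArG box in 1 and in 1.47%. A match is a description of the letters and shows no binding.

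The 3 tested collagens that were not called had overlapping depots. Col12a1, a FACIT collagen of tendon and other loaded tissue, had a log2 fold change of 0.04 (SE 0.29, adjusted p = 0.914) with a 95% interval of -0.60 to 0.68. Its values were 14.1, 15.9, 35.5 and 15.5 CPM in WAT and 22.9, 16.6, 26.1 and 14.1 CPM in BAT, WAT 3 being far above the other WAT libraries. Col23a1, a transmembrane collagen, had -0.60 (adjusted p = 0.162), and Col28a1, a collagen with von Willebrand factor A domains, had -0.45 (adjusted p = 0.228). On RPKM values not centred, where the median of all genes was -1.51 and 74.3% of genes were called lower, all 3 were called lower in BAT.

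The other 19 members had too few reads to test. They included Col2a1, the main collagen of cartilage, with 3 reads in WAT and 3 in BAT, and the 3 chains of type IX collagen. None of the 19 exceeded 31 reads in any library. With no filter, Col11a1, Col11a2, Col19a1 and Col4a3 were called higher and Col8a2 lower in BAT, beside 18.5% and 25.8% of all genes. These calls rest on few reads, for example 14 in BAT and 8 in WAT for Col11a1, and 3 in BAT and 88 in WAT for Col8a2.

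The order of the collagens within a depot was read from RPKM, reads scaled by exon length and by mapped reads, which can be compared between genes of one group. In WAT, Col3a1 led with 507 ± 46.1 RPKM (SD, n = 4), apart from all others. Next came Col1a2 at 185 ± 28.96, Col6a2 at 168 ± 17.02 and Col4a1 at 158 ± 17.2 RPKM. From Col1a2 to Col4a2, which held places 2 to 7, neighbours overlapped. In BAT, Col3a1 led again with 54.0 ± 24.6 RPKM, but Col4a1 at 42.97 ± 13.8 and Col4a2 at 32.3 ± 8.71 RPKM held the next places, and the top 11 formed an unbroken run of overlapping neighbours. Col27a1 was eighth in BAT at 6.68 ± 2.55 RPKM. RPKM levels are not set between depots here, because the share of mapped reads that lay in genes differed between them.

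The make-up of the collagen RNA differed accordingly. Type IV took 15.6%, 16.6%, 17.5% and 17.1% of summed collagen RPKM in the WAT libraries and 29.4%, 36.8%, 37.3% and 30.8% in the BAT libraries. The share in every BAT library was above that in every WAT library, with means of 16.7% ± 0.827 and 33.6% ± 4.05 (SD, n = 4 each). Type VI went the other way, from 21.4% ± 1.78 to 12.3% ± 1.17, and type III from 29.3% ± 1.24 to 22.8% ± 1.95, both without overlap. Type I held a like share, 19.2% ± 1.21 in WAT and 18.5% ± 2.93 in BAT, with overlap. The grouping into these types was chosen after the values had been seen, and shares are of a whole, so one rises when another falls. For 5 members, Col13a1, Col17a1, Col4a5, Col6a3 and Col18a1, the tissue count table and the tissue RPKM table list different exon lengths, so their reads and RPKM may come from different transcripts.

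**Figure D3:**
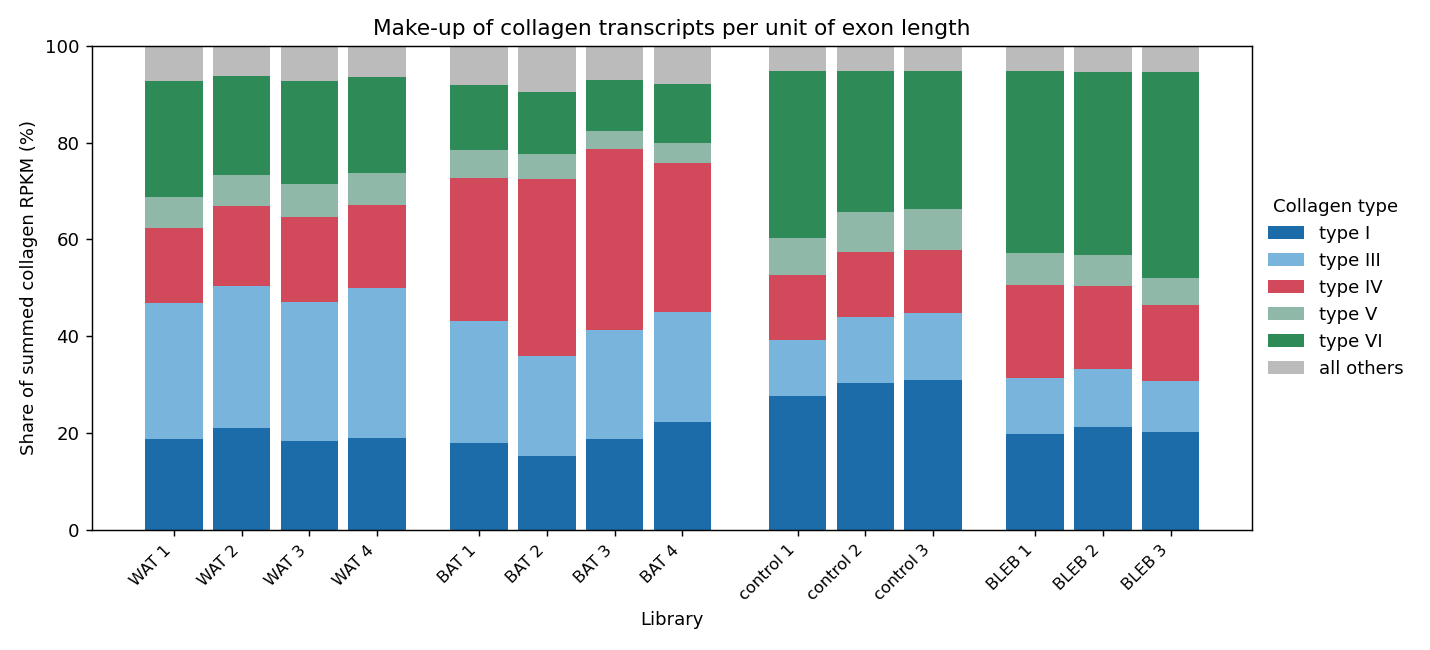
Share of summed collagen RPKM (percent, stacked to 100) taken by collagen types I, III, IV, V and VI and by all other collagens in each of the 14 libraries. Type IV averages 16.7% in WAT and 33.6% in BAT; in the cells type I averages 29.6% in control and 20.4% in BLEB, and type VI 30.6% and 39.3%.

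Chains that assemble into one trimer were compared as ratios of RPKM in each library, with no test. Col1a1 over Col1a2 was 0.949, 0.794, 0.739 and 0.750 in WAT and 0.818, 0.676, 1.16 and 0.935 in BAT, which overlapped around 1. Col4a1 over Col4a2 was 1.17 to 1.27 in WAT and 1.21 to 1.44 in BAT, also overlapping. Col6a1 over Col6a2 was 0.810, 0.917, 0.914 and 0.883 in WAT and 1.18, 1.05, 1.01 and 1.10 in BAT, with the depots apart. Col6a3 over Col6a1 was higher in every BAT library, at 0.301 to 0.503, than in any WAT library, at 0.199 to 0.280. Type V (Col5a1 over Col5a2) ratios overlapped between the depots. Type VIII (Col8a1 over Col8a2) ratios overlapped too, but Col8a2 had 0 reads in BAT 1 and 1 read in each other BAT library. That ratio thus exists in 3 BAT libraries only and says little.

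Markers of several cell types also differed between the depots, some in the direction of most collagens and some in the other direction. The 8 markers of fibroblasts and preadipocytes summed to 1183 to 1403 CPM in WAT, against 581 to 799.7 CPM in BAT, with 6 of 8 called lower, 1 higher and a median log2 fold change of -1.83. The 6 endothelial markers went from 286 to 376 to 1114 to 1305 CPM, all 6 called higher, and the 7 mural and smooth muscle markers from 455 to 599 to 1162 to 1494 CPM, with 5 higher and 1 lower. Vessel cell markers were therefore higher in BAT, while Col4a1 and Col4a2 were lower there, at -0.40 and -0.49 on the log2 scale. Type IV took the larger share of collagen RPKM in BAT, and any link of that share to vessel cells was not tested.
The 6 macrophage markers went from 4886 to 6323 CPM in WAT to 279 to 763 CPM in BAT, all 6 called lower. The 6 mesothelial markers went from 24.4 to 85.2 to 0.552 to 5.43 CPM, and Msln, Upk3b, Upk1b and Krt19 were at 0 in all BAT libraries. The 6 skeletal muscle markers went from 16.4 to 39.9 to 1551 to 25196 CPM, all 6 called higher, with the top value in BAT 4. Without BAT 4, 21 collagens were called lower, where 32.1% of all genes were, and 5 higher, where 28.9% were. These counts were not particular to BAT 4: leaving out BAT 1, BAT 2 or BAT 3 instead gave 21 lower and 5 or 6 higher, with the shares over all genes not given here. In these fits 30 or 31 collagens passed the filter, against 25 with all libraries.
The 5 Schwann cell markers summed to 47.7 to 54.2 CPM in WAT, against 59.7 to 89.03 CPM in BAT, the 5 cartilage markers to 3.26 to 6.95 and 1.76 to 9.77 CPM, and the 3 tendon markers to 0.210 to 0.541 and 0 to 6.02 CPM. The part of any of these cell types in the collagen differences was not tested.

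The genes that make, cross-link, bind and cleave collagen were also mostly lower in BAT. Of 51 such genes, 44 were tested, 34 were called lower and 4 higher, where 31.6% and 30.7% of all tested genes were, with a median log2 fold change of -1.16 beside -0.05 over all tested genes. The lower genes were led by Ctsk, the collagen-cleaving protease cathepsin K, at -4.49 (adjusted p = 2.12e-08), and by the collagenases Mmp14 at -3.03 (adjusted p = 1.28e-06) and Mmp13 at -3.01 (adjusted p = 1.51e-04). Lum, the fibril-binding proteoglycan lumican, followed at -2.87 (adjusted p = 3.03e-07). The 4 higher genes were Colgalt2, which adds galactose to collagen, at 2.77 (adjusted p = 1.05e-05), Pcolce, an enhancer of procollagen cleavage, at 0.61 (adjusted p = 0.0142), Itga1, a collagen-binding integrin chain, at 0.58 (adjusted p = 0.0365), and P4ha2, a prolyl hydroxylase subunit, at 0.44 (adjusted p = 0.0481). The number called higher was 1 with uncentred RPKM, with no filter, with no TMM normalisation and in the authors' deposited table. It was also 1 without BAT 1 or BAT 2, and it was 2 without WAT 1, WAT 2 or WAT 4. Of all tested genes, 6.55% were called higher with uncentred RPKM, 18.5% with no filter and 25.1% with no TMM normalisation. Serpinh1, the collagen chaperone HSP47, was not called, at 0.20 (adjusted p = 0.225).

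In the brown fat cell line, the question was what 24 h of myosin inhibition did to collagen RNA. Col2a1, the cartilage collagen, a low transcript in these cells, fell with blebbistatin and was the one collagen to pass limma's test on all 6 libraries. Of the 44 members 32 were tested, 1 was called lower, where 0.734% of 12808 tested genes were, and 0 were called higher, where 0.133% were (limma), 0.867% in either direction. At an unadjusted p under 0.05 there were 16 collagens, beside 1594 of all tested genes (12.4%). The median log2 fold change of the 32 was -0.47, beside 0.01 over all tested genes. Most fibrillar collagens had lower values with blebbistatin without passing the test, while the main chains of types IV and VI had values near those of control.

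Col2a1 (chr15:97806033-97835155 in mm9) was 13.2, 24.4 and 18.7 CPM in control and 2.95, 3.29 and 2.04 CPM in BLEB. All BLEB libraries were far under all control libraries, and the log2 fold change was -2.54 (SE 0.26, adjusted p = 0.00740), a fold of 5.83. It was called under every alternative tried, with log2 fold changes from -2.77 to -2.10. The 5 cartilage markers summed to 7.84 to 15.9 CPM in control and 9.08 to 13.4 CPM in BLEB, with Matn1 at 0 in every library and Acan at 0 in every control library.

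The type I chains pair in the main fibrils of soft tissue. Col1a1 was 4224, 6418 and 6923 CPM in control and 3369.8, 3387 and 3256 CPM in BLEB. The groups did not overlap and control 1 lay nearest to the BLEB libraries. The log2 fold change of Col1a1 was -0.78 (SE 0.20, adjusted p = 0.151), which was not called. Col1a2 was 1667, 2480.5 and 2740.4 CPM in control and 1006, 1123 and 818 CPM in BLEB, again apart and again with control 1 lowest of the controls. Its log2 fold change was -1.20 (SE 0.21, adjusted p = 0.0506), just short of the call, and edgeR's quasi-likelihood test called it at -1.22 (adjusted p = 0.0485). That test called 2 collagens lower, Col1a2 and Col2a1, where it called 0.757% of all tested genes lower.

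Other fibrillar collagens had the same direction of values. Col3a1 was 2421, 3913 and 4297 CPM in control and 2492, 2499 and 2034 CPM in BLEB, and control 1 lay among the BLEB libraries. Its log2 fold change was -0.56 (SE 0.23, adjusted p = 0.361), not called. Col5a2 was 1104, 1758 and 1988 CPM in control and 892, 905 and 725 CPM in BLEB, without overlap, for a log2 fold change of -0.91 (SE 0.22, adjusted p = 0.132), not called. Col5a1 had -0.50 (adjusted p = 0.348), Col5a3 -0.51 (adjusted p = 0.254), Col24a1, a fibrillar collagen of bone, -0.62 (adjusted p = 0.320) and Col11a1, of cartilage fibrils, -1.12 (adjusted p = 0.198). Of the 11 fibrillar collagens 9 had an unadjusted p under 0.05, where 12.4% of all tested genes did, and the class median was -0.62, beside 0.01. Col11a2 and Col27a1 were at 0.28 and 0.00.

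The main basement membrane and microfibril chains had log2 fold changes near 0, with 95% intervals that lay within -0.43 to 0.45. The rarer chains of these types had wider intervals, such as -0.57 to 0.68 for Col4a5 and -0.16 to 1.30 for Col4a6. For Col6a6 it was -2.64 to 0.17, and for Col6a5 it lay below 0, at -2.86 to -0.94. Col4a1 was 2102, 2832 and 2896 CPM in control and 3087, 2645 and 2205 CPM in BLEB. Control and BLEB overlapped, and the log2 fold change was 0.02 (SE 0.19, adjusted p = 0.979) with a 95% interval of -0.41 to 0.45. Col4a2 was 1132, 1595 and 1648 CPM in control and 1655, 1409 and 1295 CPM in BLEB, overlapping likewise, with a log2 fold change of 0.01 (SE 0.18, adjusted p = 0.995) and an interval of -0.41 to 0.42. Col6a1 was 2671, 3107 and 3231 CPM in control and 3086, 2955 and 2968 CPM in BLEB. Its libraries were close together in both groups, with a log2 fold change of 0.00 (SE 0.14, adjusted p = 0.996) and an interval of -0.31 to 0.32. Col6a2 was 1655, 1884 and 1919.9 CPM in control and 1758, 1738 and 2054 CPM in BLEB, overlapping, at 0.02 (SE 0.14, adjusted p = 0.968) with an interval of -0.29 to 0.34. Col6a3 had -0.06, with an interval of -0.43 to 0.30. The sign of the log2 fold changes of these 5 main chains changed between settings. That they were not called does not show that they stayed the same, and the intervals bound the difference.

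Several less abundant members had larger negative values that were not called. Col6a5 had -1.90 (adjusted p = 0.0992) from at most 5.27 CPM in a library, and no BLEB library reached the filter's read level. Col28a1 had -1.40 (adjusted p = 0.134), Col6a6 -1.24 (adjusted p = 0.477) and Col12a1 -1.13 (adjusted p = 0.219). Col8a1 had -0.64 (adjusted p = 0.2002) and Col10a1, of hypertrophic cartilage, -0.73 (adjusted p = 0.295). Col7a1, of the anchoring fibrils under epithelia, had -0.47 (adjusted p = 0.273). On the positive side Col15a1 had 0.33 (adjusted p = 0.286) and was the 1 tested collagen with every BLEB library above every control library, and Col4a6 had 0.57 (adjusted p = 0.542) with overlap. In all, 12 of 32 collagens had every BLEB library below every control library, where 9.99% of all tested genes did, and 1 the reverse, where 9.62% did.

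The number of collagens called in the cells depended on control 1 and on the test used. Without control 1, limma called 12 of 32 collagens lower and 0 higher, where 2.05% of 13007 tested genes were called lower. Those 12 were Col1a1, Col1a2, Col2a1, Col3a1, Col5a2, Col11a1, Col6a5, Col6a6, Col8a1, Col12a1, Col14a1 and Col28a1. Col1a2 was then at -1.42 (adjusted p = 0.00440) and Col1a1 at -0.997 (adjusted p = 0.00863), while Col4a1 was at -0.13 (adjusted p = 0.754) and Col6a1 at -0.08 (adjusted p = 0.809). With any other library left out, 1 collagen was called lower. Control 1 was nearer to the mean of the BLEB libraries than to that of the other controls for 25 of 32 tested collagens (78.1%) and for 56.9% of all tested genes, a count made after the values had been seen. Its collagens took 2.01% of gene reads, against 2.94% and 3.17% in the other controls and 2.29%, 2.16% and 1.91% in BLEB. On all 6 libraries DESeq2 called 9 collagens lower and 0 higher, where it called 2.80% of all tested genes lower and 1.08% higher, and the authors' deposited table holds 10 with a negative log2 fold change and an adjusted p under 0.05, as it does 1.44% of all genes.

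**Figure D4:**
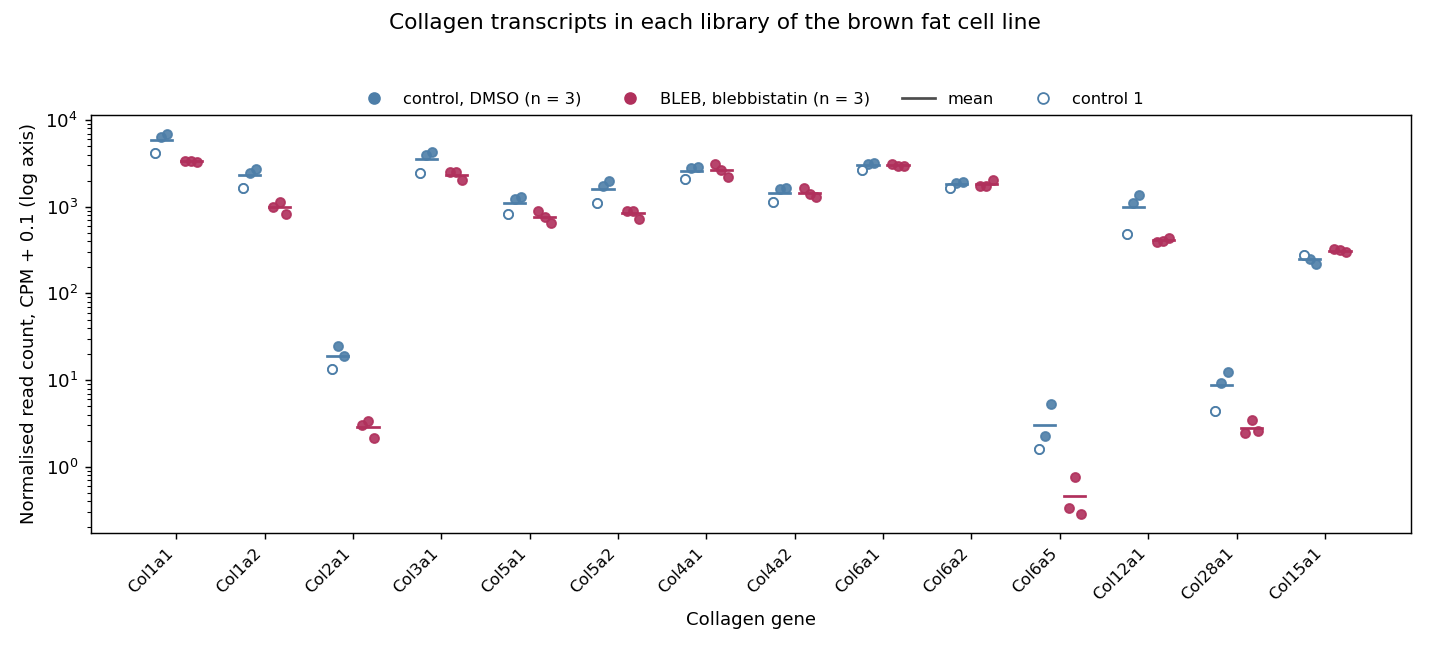
Normalised read counts (CPM plus 0.1, log axis) of 14 collagens in each of the 3 control and 3 BLEB libraries of the cell line (points), with the group mean as a bar and control 1 as an open circle. Col2a1 is at 13.2 to 24.4 CPM in control and 2.04 to 3.29 CPM in BLEB; for Col1a1, Col1a2 and Col12a1 control 1 lies between the other controls and the BLEB libraries, and Col4a1, Col4a2, Col6a1 and Col6a2 overlap.

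Per exon length, Col1a1 led the control cells at 785 ± 236 RPKM (SD, n = 3), followed by Col6a1 at 596 ± 96.4 and Col3a1 at 507 ± 169 RPKM, with overlap between neighbours. In BLEB the order was Col6a1 at 609.9 ± 61.6 RPKM, apart from Col1a1 at 455 ± 48.1 RPKM, and then Col6a2 at 398 ± 6.87 RPKM. Type I took 27.7%, 30.3% and 30.8% of collagen RPKM in the control libraries and 19.7%, 21.2% and 20.3% in the BLEB libraries. Every control library, control 1 included, was above every BLEB library. The share of type VI was 30.6% ± 3.24 in control and 39.3% ± 2.75 in BLEB (SD, n = 3 each), and that of type IV 13.3% ± 0.274 and 17.3% ± 1.80, both higher in each BLEB library. As in tissue, shares are of a whole, so one rises when another falls, and the types were chosen after the values had been seen. The log2 fold changes of Col6a1 and Col4a1 themselves were 0.00 and 0.02. The ratio of Col1a1 to Col1a2 was 2.19, 2.24 and 2.19 in control and 2.90, 2.61 and 3.45 in BLEB. The 3 controls were close together, control 1 too, and all BLEB libraries were higher. Col5a1 over Col5a2 was 0.581, 0.548 and 0.508 in control and 0.788, 0.667 and 0.710 in BLEB, also apart. The ratios Col4a1 over Col4a2, Col6a1 over Col6a2, Col6a3 over Col6a1 and Col8a1 over Col8a2 overlapped. With 3 libraries against 3, an exact permutation test cannot go below a two-sided p of 0.10, and none was run on the ratios or shares.

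**Figure D5:**
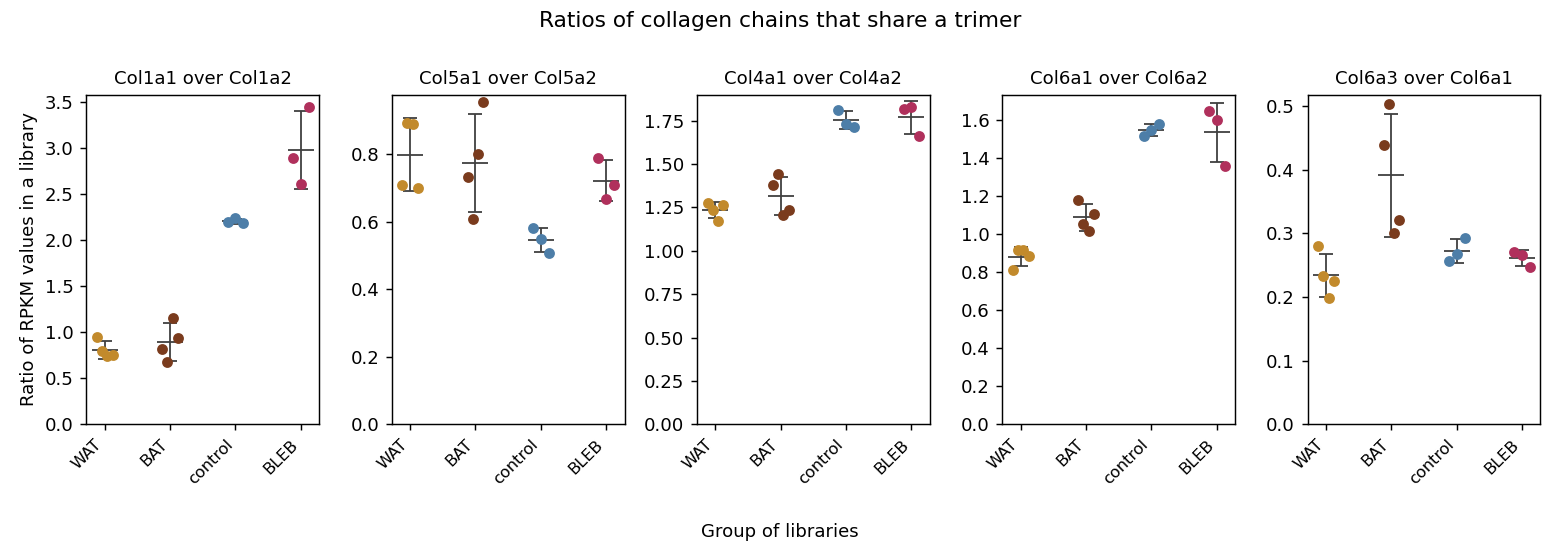
Ratios of RPKM between chains of the same collagen trimer in each library (points), by group, with the mean and SD (grey bars). Col1a1 over Col1a2 averages 2.21 in control and 2.99 in BLEB without overlap, Col4a1 over Col4a2 overlaps within each experiment, and Col6a1 over Col6a2 and Col6a3 over Col6a1 are higher in BAT than in WAT.

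In the cells, 8 fibroblast and preadipocyte markers summed to 795 to 1025 CPM in control and 655 to 687 CPM in BLEB, with 1 of 6 tested called lower. The 7 mural and smooth muscle markers summed to 885 to 1133 and 588 to 668 CPM, with 3 of 5 tested called lower. Of all tested genes 0.734% were called lower. The 5 general adipocyte markers summed to 4829 to 7723 CPM in control and 4369 to 6685 CPM in BLEB with none called, and these ranges overlapped while those of the other 2 lists did not. Endothelial markers (5.63 to 6.14 and 4.17 to 4.89 CPM), macrophage markers (6.05 to 7.46 and 5.74 to 9.26 CPM) and skeletal muscle markers (4.27 to 5.84 and 3.14 to 3.89 CPM) were low, with Emcn and Tie1 at 0 throughout. Mesothelial markers were at 15.2 to 20.6 and 4.66 to 6.11 CPM, with 1 of 3 tested called lower. Schwann cell markers were at 6.87 to 14.1 and 7.84 to 8.44 CPM, and tendon markers at 1.89 to 2.35 and 0.833 to 1.12 CPM. The part of these lists in the collagen values was not tested.

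Of the genes that process collagen, 45 were tested in the cells, 3 were called lower and 0 higher, with a median log2 fold change of -0.31 and 22 at an unadjusted p under 0.05. Over all tested genes 0.734% were called lower, 0.133% higher and 12.4% had an unadjusted p under 0.05, with a median of 0.01. The 3 were Tll1, a tolloid-like protease of procollagen, at -1.82 (adjusted p = 0.0192), Loxl4, a cross-linking lysyl oxidase, at -0.99 (adjusted p = 0.0455), and Serpinh1, the collagen chaperone, at -0.72 (adjusted p = 0.0357). Lox, the main lysyl oxidase, had -0.99 (adjusted p = 0.0712) and P4ha2 -0.70 (adjusted p = 0.0616), neither called. These calls depended on the libraries: without control 2, control 3 or BLEB 2 there were 0 lower. Without control 1 there were 7, where 2.05% of all tested genes were called lower.

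The 12 collagens not tested in the cells had at most 15 reads in a library. Col13a1, higher in BAT than in WAT, had 0 reads in all 6 libraries of the cell line, where 3 counts over a group allow up to 0.0851 CPM in control and 0.0809 CPM in BLEB. Col27a1, the other collagen higher in BAT, was 222, 166 and 141 CPM in control and 132, 189 and 209.9 CPM in BLEB, with a log2 fold change of 0.00 (SE 0.21, adjusted p = 0.999) and overlapping groups.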

How the data were processed

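Polyadenylated RNA of 8 fat samples and 6 cell line samples had been sequenced from stranded libraries, per the labels' protocols. The submitters' processing notes name the build mm9 and the tools STAR, HOMER and edgeR. Neither tool versions nor the strand setting of the counting is stated there. HOMER's counting was over exons, with 1 row per gene, per the file headers. The authors deposited a signal per gene, which is the read count scaled by 1 factor per library, and separately RPKM, log2 fold changes and p-values. From the deposited signal the reads behind each value were recovered: of values up to 1000 reads, 100% lay within 0.1 of a whole number, and larger ones are approximate. Another 3 libraries named in the cell RPKM table were not analysed here.

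CPM was taken from the recovered reads after TMM normalisation. Genes passed filterByExpr (minimum count 10, total 15) and were tested with limma (trend, robust) on log2(CPM + 0.5), which understates the change of low genes. P-values were adjusted over all tested genes by the Benjamini-Hochberg method and called under 0.05. Tissue and cells were fitted apart, with group as the single term, and the fit was tested on simulated data. Alternatives were edgeR's quasi-likelihood test, DESeq2, log2(RPKM + 0.1) plain and centred on library medians, pseudocounts of 0.1 and 2, no filter, no TMM, the authors' table, a replicate block, and each library left out. The software was DESeq2 1.42.0, edgeR 4.0.16 and limma 3.58.1 in R 4.3.3. Intervals on reads and the limit of 3 counts cover counting error only. Promoters came from a RefSeq table on GRCm38.p6, and other coordinates are mm9 from the deposited tables.

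The members, the 51 processing genes and the marker lists were chosen with earlier results of these data known. Members are given library by library if among the 6 largest called changes in a direction, or the 8 highest mean RPKM in any group. The other members described, the shares by type, the nearness of control 1, the motifs and the promoters shown were chosen after the values had been seen.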

Additional observations from a re-analysis of the deposited data

Results flagged for a closer look

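In 3 of 50 groups of 4 tissue libraries, 1 library stood far from the others, where chance gives about 1 in 20 groups. Col12a1 was at 35.5 CPM in WAT 3 and at 14.1 to 15.9 CPM in the other WAT libraries. Col4a6 was at 7.15 CPM in WAT 2 and at 2.49 to 2.98 CPM in the other WAT libraries. Col6a6 was at 1.32 CPM in BAT 1, from 3 reads, and at 0 in the other BAT libraries.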

How the results depend on the processing

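The 20 lower collagens of the depots kept their direction under all alternatives in which they had a value, and among those values Col4a6 alone lost its call (on centred RPKM). With any WAT library left out, Col4a6 and Col13a1 had no value. The number of collagens called higher in BAT was 2, 6 with no filter and 6 in the authors' deposited table, and 1 to 6 with 1 library left out; leaving one out changes the filter, so other members with few reads entered or left. Over all genes RPKM called 836 higher and 9478 lower in BAT. Processing genes called higher in BAT fell from 4 to 1 with RPKM, with no filter, with no TMM normalisation and in the authors' deposited table, and were 1 to 4 with 1 library left out.

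In the cells, collagens called lower were 1, 2 with edgeR's quasi-likelihood test, 9 with DESeq2, 10 in the authors' deposited table and 1 to 12 with 1 library left out, the 12 being without control 1; the cause was not tested. All genes called higher and lower with blebbistatin were 138 and 359 with DESeq2, 102 and 352 in the authors' deposited table, 4 and 26 with RPKM, 7 higher with centred RPKM, 56 lower with no TMM normalisation, and 0 to 54 and 13 to 267 with 1 library left out. Processing genes called lower were 10 with DESeq2 and 10 in the authors' deposited table (with 1 higher in each), 0 with RPKM, 1 with centred RPKM and with no TMM normalisation, and 0 to 7 with 1 library left out.

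The labels do not say that replicate numbers pair the samples. Deviations of same-numbered libraries from their group means correlated at -0.04 to 0.07 in tissue and -0.49 to 0.32 in the cells. With so few libraries per group, these values cannot show whether same-numbered samples shared an animal or culture. A fit with the replicate block left the depot calls of collagens at 20 and 2 and the cell call at 1. Over all genes in the cells the block called 0 higher and 30 lower, and 0 processing genes lower.

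The sign of some log2 fold changes that were not called turned. In tissue, Col12a1 was -0.029 with edgeR's quasi-likelihood test, -0.038 with DESeq2, -1.32 with log2(RPKM + 0.1), -0.17 with no filter, -0.17 with no TMM normalisation and -0.24 with the authors' deposited table. Only the RPKM value of Col12a1 was called. Col23a1 was 0.059 with RPKM centred on library medians. In the cells, Col27a1 was -0.0020 with DESeq2. Col4a2 was -0.0053 with edgeR's quasi-likelihood test, -0.010 with DESeq2 and -0.0037 with the authors' deposited table. Col6a1 was -1.6e-04 with edgeR's quasi-likelihood test and -0.0048 with DESeq2. Col8a2 was 0.0065 with a pseudocount of 0.1 and 0.029 with no TMM normalisation. With 1 library left out, Col12a1 went from -0.14 to 0.30 in tissue, Col14a1 went from -1.20 to 0.033, Col16a1 went from -0.22 to 0.28, Col20a1 went from -0.20 to 0.048, Col23a1 went from -0.12 to 0.40, Col27a1 went from -0.15 to 0.19, Col4a1 went from -0.13 to 0.14, Col4a2 went from -0.16 to 0.11, Col4a5 went from -0.22 to 0.27, Col6a1 went from -0.077 to 0.060, Col6a2 went from -0.064 to 0.064, Col6a3 went from -0.19 to 0.050, Col8a2 went from -0.77 to 0.45, the value of Col14a1 without control 1 being called. The median gene in tissue was at -0.26 with no TMM normalisation and with no filter, and at -1.51 on RPKM. The 19 untested members in tissue had at most 31 reads in a library and the 12 in the cells at most 15.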

Other observations

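For the 3 collagens with the highest mean RPKM in WAT, the 5 tested genes whose deviations from the depot means were most correlated over the 8 tissue libraries were listed, as a description with no test, since the libraries share depth and composition. For Col3a1 these were Snapc4 (Pearson r 0.991), Suv39h1, Lig1, Igsf9 and Plk4. For Col1a2 they were Tet3 (r 0.985), Adpgk, E2f3, Ephb6 and Nod2. For Col6a2 they were Prmt5 (r 0.962), Arhgef6, Col6a1 (r 0.952), Rybp and Gm13154, and Col6a1 was the only collagen named in the 3 lists. The median r with the other 24 tested collagens was 0.530 for Col3a1, 0.461 for Col1a2 and 0.481 for Col6a2, beside 0.0301, 0.0579 and 0.0447 over all tested genes.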
